A study of Homo sapiens with 48 samples.

Results

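Day 7 embryoid bodies (EBs), clusters in which stem cells differentiate in suspension, were compared with ectoderm made by directed neural induction. Members were chosen by their labels alone: 36 of the 48 libraries of the series, of which 32 were EB libraries and 4 were ectoderm libraries. All cultures came from the established human embryonic stem cell line WA09, or H9, with the genotype given as normal. EBs were grown in low-attachment wells from 20000 dissociated cells each, in E6 medium without added lineage inducers for 7 days. Treatment in the first 24 hours was with Y-27632, a ROCK inhibitor that improves survival after dissociation, or with the cytoprotective cocktail CEPT, with 16 libraries in each arm. The ectoderm cultures also grew in E6 medium, with 100 nM LDN-193189 and 2 µM A83-01 over 6 days. These compounds inhibit BMP and activin/TGF-beta type I receptors respectively, a treatment known as dual SMAD inhibition. Undifferentiated hESC cultures (4 libraries) give a background level and enter no test. The groups differ at the same time in compounds, culture format and days of culture, so the effects of these cannot be told apart. Whether each library is a separate EB or culture is not stated in the labels, so p-values measure only the spread between these libraries, which may be technical.

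RASL-Seq measures a fixed set of RNAs: adjoining probes are ligated on captured polyadenylated RNA, and the products are amplified and sequenced. The panel held 1113 probes for 452 genes, and reads were summed over the probes of each gene. Levels are given in CPM, counts per 1e+06 reads of a library's effective size after TMM scaling. CPM compares libraries for the same gene, and not a gene with another gene, since probes differ in number and efficiency. Totals ranged from 379810 to 5577868 reads in the EB libraries and from 2283016 to 3334662 in ectoderm. Among these libraries Y27 EB replicate 15, which had the lowest total, stood apart in mesoderm genes, and ectoderm replicate 4 in genes that were high in endoderm cultures; values that moved without them are given beside the results. EB libraries are bulk samples, so fewer cells of a type and less RNA per cell cannot be told apart.

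Early neural ectoderm forms where BMP and activin signals are blocked, and its anterior part, which gives the forebrain and eye, is marked by factors such as PAX6 and SIX3. At the border of the neural plate, cells become neural crest, which leaves the tube under factors such as SOX10, FOXD3 and SNAI2. Crest cells go on to form sensory and autonomic neurons, Schwann cells and other derivatives, and ISL1 is a LIM homeodomain factor of sensory and motor neurons that is also used in early heart and pancreas.

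The markers that define the contrast lie on different chromosomes. In the GRCh38.p14 RefSeq annotation SOX10 spans bases 37972312 to 37984555 of chromosome 22, and ISL1 spans 51383448 to 51394730 of chromosome 5. PAX6 spans 31789026 to 31817961 of chromosome 11 and LMX1A 165201867 to 165356715 of chromosome 1. FOXD3, the gene with the highest log2 fold change in EBs, spans 63322567 to 63325128 of chromosome 1. The 250 bases before the annotated start are shown for a pair of genes that was high in EBs and a pair that was high in ectoderm, 5′ to 3′ on the gene's strand, so that a reader has the proximal promoters of both poles of the comparison (RefSeq, GRCh38.p14). Capitals mark matches, on either strand, to CAGAC, a SMAD-binding element, GGCGCC, a GC-rich SMAD element, or CAGCTG, an E-box. 
FOXD3 (chr1:63322317-63322566, plus strand): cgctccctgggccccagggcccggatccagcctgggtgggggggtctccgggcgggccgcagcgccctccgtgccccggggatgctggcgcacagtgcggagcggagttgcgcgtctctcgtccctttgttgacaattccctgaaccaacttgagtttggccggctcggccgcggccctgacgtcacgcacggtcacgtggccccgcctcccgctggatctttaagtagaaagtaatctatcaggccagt
ISL1 (chr5:51383198-51383447, plus strand): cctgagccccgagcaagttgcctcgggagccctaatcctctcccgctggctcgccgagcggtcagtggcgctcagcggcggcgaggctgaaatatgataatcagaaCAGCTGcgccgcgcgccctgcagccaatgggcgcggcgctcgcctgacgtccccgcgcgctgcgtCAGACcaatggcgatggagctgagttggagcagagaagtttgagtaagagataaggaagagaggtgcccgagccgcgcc
PAX6 (chr11:31817962-31818211, minus strand): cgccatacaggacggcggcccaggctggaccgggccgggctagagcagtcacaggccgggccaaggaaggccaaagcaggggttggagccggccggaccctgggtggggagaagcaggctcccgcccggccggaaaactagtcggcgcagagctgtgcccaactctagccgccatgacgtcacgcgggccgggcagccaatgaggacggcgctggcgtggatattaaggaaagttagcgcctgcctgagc
LMX1A (chr1:165356716-165356965, minus strand): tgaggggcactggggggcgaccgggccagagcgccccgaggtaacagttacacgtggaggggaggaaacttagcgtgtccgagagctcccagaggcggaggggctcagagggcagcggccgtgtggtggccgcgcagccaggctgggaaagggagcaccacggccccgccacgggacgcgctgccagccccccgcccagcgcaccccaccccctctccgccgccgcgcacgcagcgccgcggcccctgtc
The ISL1 window held 1 CAGCTG and 1 CAGAC, and the other windows shown held none of the motifs. Among 35116 promoter windows of the same length, 38.0% held CAGAC, 16.4% GGCGCC and 13.99% CAGCTG. No binding was measured, so these matches describe letters only.

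Most of the panel differed between EBs and directed ectoderm. Of 422 genes past the count filter, 319 (75.6%) had a Benjamini-Hochberg adjusted p under 0.05 by the quasi-likelihood test of edgeR, and at an unadjusted p under 0.05 there were 326. Of the called genes, 171 were higher in EBs (40.5% of genes tested) and 148 were lower (35.1%). With such a background, a call by itself sets no gene apart, and the size of the difference and the overlap of libraries carry more. The counts given for each gene list below are to be read against these shares. The EB and ectoderm libraries did not overlap for 212 genes (50.2%), with all EB libraries above all ectoderm libraries for 107 (25.4%) and below for 105 (24.9%). A called log2 fold change of at least 3 was found for 66 genes that were higher and 43 that were lower. The median log2 fold change of all genes tested was 0.27.

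**Figure D1:**
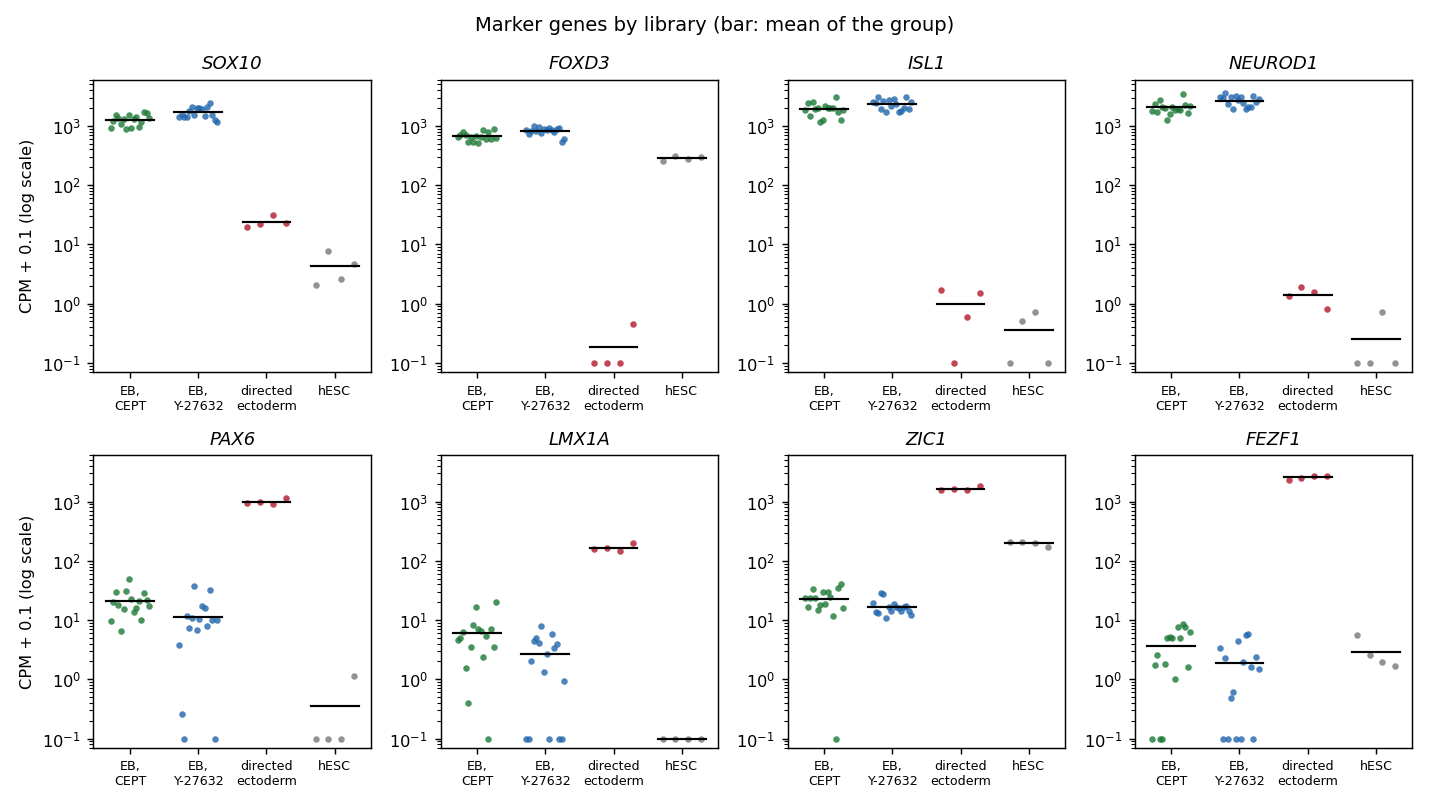
CPM + 0.1 on a log scale for 8 genes, with a point for each library of CEPT EB (16), Y-27632 EB (16), directed ectoderm (4) and hESC (4) and a bar at each group's mean. All 32 EB libraries lie above the 4 ectoderm libraries for SOX10, FOXD3, ISL1 and NEUROD1 and below them for PAX6, LMX1A, ZIC1 and FEZF1; points at 0.1 are libraries without a read.

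The markers split cleanly: SOX10 and ISL1 were high in every EB library, PAX6 and LMX1A in every ectoderm library. SOX10, the transcription factor that maintains neural crest and its glial progeny, ranged from 889 to 2386 CPM in EBs with a median of 1426. In ectoderm replicates 1 to 4 it was at 19.9, 21.7, 31.2 and 22.8 CPM. EBs were higher by 5.94 ± 0.25 on the log2 scale (SE, adjusted p = 1.92e-22). The mean in hESC was 4.16 CPM. ISL1 ranged from 1175 to 3082 CPM in EBs (median 2009.8) and was at 1.62, 0, 0.496 and 1.40 CPM in ectoderm, a log2 fold change of 11.17 ± 0.41 (SE, adjusted p = 3.11e-24). Mesoderm cultures of the same series averaged 10.7 CPM of ISL1 and endoderm cultures 18.6, so the EB level was above each control group.

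PAX6, a paired-box regulator of the anterior neural plate and eye, was at 929, 999.6, 919 and 1149 CPM in the ectoderm replicates. In EBs it ranged from 0 to 50.1 CPM with a median of 14.3, and 2 of 32 libraries had no read. On the log2 scale the difference was -6.01 ± 0.41 (SE, adjusted p = 4.05e-16). LMX1A, a LIM homeodomain factor of the roof plate and midbrain floor plate, was at 155, 167, 146 and 196 CPM in ectoderm. It reached at most 19.8 CPM in EBs, where the median was 3.63 CPM and 6 libraries had no read (log2 fold change -5.36 ± 0.55, SE, adjusted p = 3.88e-11). A count of 0 allows an expected count of up to 3 reads in that library, counting error only. Endoderm cultures averaged 452 CPM of LMX1A and 216 CPM of PAX6, so neither marks ectoderm alone among these controls. Each tested probe of these genes was called in the same direction, 3 for SOX10 and 2 each for ISL1, PAX6 and LMX1A. Over the whole panel, 703 of 990 probes tested alone were called (71%), 369 higher (37.3%) and 334 lower (33.7%). For the markers the smallest probe values were 4.37 for SOX10, 10.53 for ISL1, -5.09 for PAX6 and -5.22 for LMX1A on the log2 scale.

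The genes of anterior neural identity were low in EBs as a group. Of 19 genes on the panel from a list of neural plate, forebrain and roof plate regulators, 17 were tested: 12 were lower in EBs, 1 was higher and 4 were not called. The median log2 fold change was -3.40, against 0.27 over all genes tested. The summed level of the listed genes was 320.9 to 1021.1 CPM in EBs and 9871.7 to 11322.1 CPM in ectoderm. The hESC libraries lay between, at 3477.3 to 3837.6 CPM, and ZIC2, a zinc-finger factor already present in stem cells, averaged 1982 CPM there. Mesoderm cultures summed to 7894.7 to 8655.9 CPM and endoderm cultures to 7357.5 to 8023.6 CPM. A high sum therefore does not mark neural cultures alone among these controls.

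FEZF1, a zinc-finger repressor of forebrain development, had the lowest log2 fold change on the panel. It was at 2344, 2459, 2733 and 2689 CPM in ectoderm and at 0 to 8.49 CPM in EBs (median 1.78), with 8 EB libraries at 0. The difference on the log2 scale was -9.98 ± 0.47 (SE, adjusted p = 8.55e-21). The EB mean of 2.71 CPM was at the hESC level of 2.84 CPM. ZIC1, a neural plate zinc-finger factor, lay on the same side, with 1544 to 1798 CPM in ectoderm and 0 to 40.0 CPM in EBs (median 16.8; log2 fold change -6.39 ± 0.24, SE). The EB level of ZIC1 was also below the 197 CPM of hESC. EMX2, a cortical patterning gene, was at 108 to 133 CPM in ectoderm and at most 8.63 CPM in EBs (log2 fold change -6.11). SIX3 and ZIC4 had log2 fold changes of -5.40 and -5.81.

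The remaining members of the list moved less or the other way. OTX2, a forebrain and midbrain factor, was at 449 to 515 CPM in ectoderm and 6.97 to 177 CPM in EBs (median 68.6; log2 fold change -2.88 ± 0.27, SE). It was highest in endoderm cultures, at 1826 CPM. HESX1 was lower by a smaller amount, -1.36 on the log2 scale, and its libraries overlapped. GBX2, a hindbrain-side partner of OTX2 at the midbrain boundary, was at 62.4 ± 54.6 CPM (SD, n = 32) in EBs and 68.3 ± 7.89 (SD, n = 4) in ectoderm, without a call (log2 fold change -0.13 ± 0.61, SE). MSX1, a plate border and roof plate factor downstream of BMP signalling, was the member that was higher in EBs. It was at 15.1 to 790 CPM there (median 49.9) and at 8.08 to 11.9 CPM in ectoderm (log2 fold change 2.84 ± 0.75, SE, adjusted p = 0.000931). Without Y27 EB replicate 15, the library with 790 CPM and the fewest reads, the log2 fold change of MSX1 was 2.41 (adjusted p = 8.14e-07). Of its 3 probes tested alone, 2 were called higher and the other had a log2 fold change of -0.02. Mesoderm cultures had 12425 to 16234 reads of MSX1 per library, against 69 to 531 in EBs, so it does not mark neural cells alone.

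Genes of the progenitor state were expressed in both cultures, at different levels. All 13 listed neural progenitor genes on the panel were tested, and 9 were lower and 4 higher in EBs, with a median log2 fold change of -0.96. SOX2, the factor shared by stem cells and neural progenitors, was at 405 to 961 CPM in EBs (median 667) and at 6828 to 7160 CPM in ectoderm (log2 fold change -3.40 ± 0.11, SE, adjusted p = 3.79e-26). The hESC mean of SOX2 was 1224 CPM, above every EB library. SOX1, a marker of committed neuroectoderm, was at 0 to 21.0 CPM in EBs and 209 to 231 CPM in ectoderm (log2 fold change -5.06 ± 0.45, SE). HES5, a Notch target that keeps progenitors dividing, had a log2 fold change of -5.02, and its ectoderm values of 64.9, 51.7, 169 and 49.9 CPM varied more than those of SOX1. Without ectoderm replicate 3 the log2 fold change of HES5 was -4.43. The Notch ligand DLL1 was at 231 to 530 CPM in EBs and 1248 to 1558 CPM in ectoderm (log2 fold change -1.91 ± 0.12, SE).

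The intermediate filament genes differed in sign. NES was lower in EBs (log2 fold change -1.14 ± 0.21, SE) and VIM higher (0.80 ± 0.19). FABP7, a fatty acid binding protein of radial glia and crest-derived glia, was at 974 to 6547 CPM in EBs (median 2921) and 780 to 920 CPM in ectoderm, a log2 fold change of 1.92 ± 0.45 (SE, adjusted p = 0.000229). POU3F3, a POU factor of neural progenitors, was higher as well, at 11.6 to 61.9 CPM in EBs and 3.86 to 6.77 CPM in ectoderm. ZBTB16, the other member called higher, had a log2 fold change of 0.71 ± 0.32 (SE, adjusted p = 0.041), and its call was lost when any of the ectoderm replicates was left out. Compared with hESC, all 13 genes had a higher mean in ectoderm and 11 had a higher mean in EBs.

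Neural crest genes were high throughout the EB libraries. Of 10 listed crest and plate border genes, 8 were higher in EBs, none was lower, and 2 were not called. All 32 EB libraries were above all 4 ectoderm libraries for each of the 8. The median log2 fold change of the list was 4.95, or 4.75 with a gene at 0 in ectoderm set to its bound, against 0.27 over all genes tested. The summed level was 3987.1 to 8224.9 CPM in EBs, 450.2 to 565.0 CPM in ectoderm and 390.5 to 491.0 CPM in hESC.

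FOXD3, a forkhead factor of premigratory crest and of pluripotent cells, was at 510.0 to 980.0 CPM in EBs (median 771) and had a single read in ectoderm, in replicate 4. The ratio of levels was 7778, with an exact 95% interval from 1396 to 307202 that covers counting error only. The fit gave a log2 fold change of 12.46 ± 0.34 (SE, adjusted p = 7.14e-28). Without that library no ectoderm read is left, so the fitted value of 14.47 is not a measured size. FOXD3 averaged 285 CPM in hESC, so it was higher in EBs and almost absent in ectoderm relative to the starting cells. SNAI2, which drives the transition to migrating crest, was at 945 to 1923 CPM in EBs (median 1418) and 52.4, 60.2, 67.4 and 66.7 CPM in ectoderm (log2 fold change 4.51 ± 0.16, SE). PAX3, a plate border factor, was present in both: 743 to 1523 CPM in EBs (median 961) and 237 to 306 CPM in ectoderm (log2 fold change 1.93 ± 0.15, SE). NGFR, the low-affinity neurotrophin receptor used to sort crest cells, showed a similar size of difference, 329.98 to 859 CPM against 104 to 160 CPM (log2 fold change 1.98 ± 0.20, SE).

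CDH6, a cadherin of premigratory and migrating crest, was at 251 to 754 CPM in EBs and at 0 to 1.22 CPM in ectoderm (log2 fold change 9.21 ± 0.40, SE, adjusted p = 4.41e-22). ETS1, a factor of cranial crest, was at 54.0 to 155 CPM in EBs and 0.713 to 2.03 CPM in ectoderm (log2 fold change 5.95 ± 0.34, SE). HAND2, a factor of the heart and of sympathetic neurons, was not called. It was at 165 CPM in Y27 EB replicate 15 and at most 12.2 CPM in the other 31 EB libraries, of which 20 had no read (adjusted p = 0.107 over all 32).

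**Figure D2:**
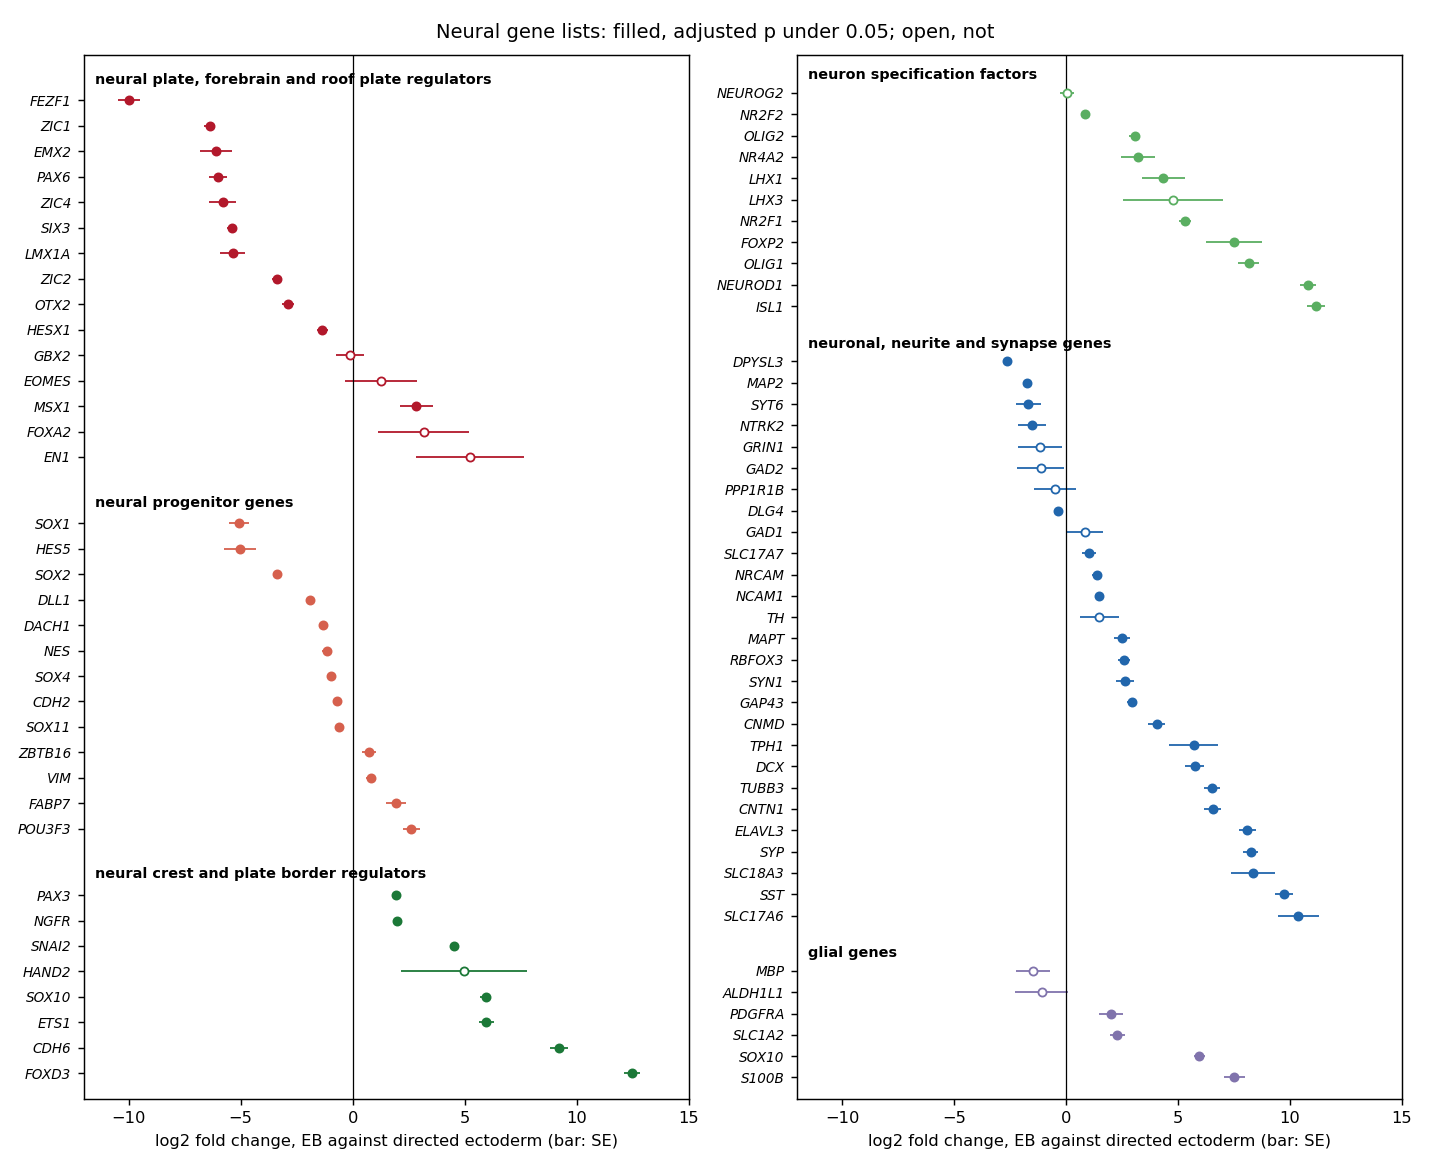
Log2 fold change of EBs against directed ectoderm for tested genes of 6 neural lists, with bars of 1 SE; filled points have an adjusted p under 0.05 and open points do not. The forebrain list runs from -9.98 (FEZF1) to 5.22 (EN1, not called), the crest list from 1.93 (PAX3) to 12.46 (FOXD3), and the neuronal list from -2.64 (DPYSL3) to 10.38 (SLC17A6). EN1 and SLC17A6 had no read in ectoderm, so their points are fitted values and not measured sizes.

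Transcription factors that specify neurons were mostly higher in EBs. Of 12 tested members, 10 were higher, none was lower, and NEUROG2 and LHX3 were not called. The median log2 fold change was 4.57, or 3.74 with genes at 0 in ectoderm set to their bound. NEUROD1, a bHLH factor of differentiating neurons and of sensory ganglia, was at 1243 to 3524 CPM in EBs (median 2216) and 1.22, 1.78, 1.49 and 0.702 CPM in ectoderm. This is a log2 fold change of 10.80 ± 0.34 (SE, adjusted p = 1.99e-26). NEUROG2, a bHLH factor that acts upstream of NEUROD1 in sensory and cortical neurons, was at 11.4 to 48.04 CPM in EBs and 19.3 to 29.5 CPM in ectoderm. It was not called (log2 fold change 0.04 ± 0.31, SE, adjusted p = 0.919).

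NR2F1, a nuclear receptor of neural patterning, was at 582 to 1466 CPM in EBs and 23.5 to 28.4 CPM in ectoderm (log2 fold change 5.29 ± 0.27, SE). NR2F2, its close paralog, was high in both, with a log2 fold change of 0.85 ± 0.20 (SE). How far reads could be shared between such paralogs is not stated. OLIG1 and OLIG2, bHLH factors of the motor neuron and oligodendrocyte lineage, had log2 fold changes of 8.15 ± 0.49 and 3.06 ± 0.24 (SE). OLIG1 was at 103 to 377 CPM in EBs and at most 1.76 CPM in ectoderm, and hESC averaged 71.4 CPM. Without ectoderm replicate 4 the log2 fold change of OLIG1 was 9.36.

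Genes of the neuronal cytoskeleton, synapse and transmitters were mostly higher in EBs. All 27 members on the panel were tested, and 17 were higher, 5 lower and 5 not called, with a median log2 fold change of 2.49. SST, which encodes the neuropeptide somatostatin, was at 4785 to 19508 CPM in EBs (median 8835) and 11.8, 11.8, 8.92 and 13.7 CPM in ectoderm. This is a log2 fold change of 9.73 ± 0.42 (SE, adjusted p = 4.60e-22). TUBB3, a tubulin of neurons, was at 5519 to 19711 CPM in EBs (median 11948) and 112 to 166 CPM in ectoderm (log2 fold change 6.52 ± 0.35, SE, adjusted p = 4.96e-19). The hESC mean of TUBB3, 1760 CPM, was itself well above the ectoderm level. TUBB3 was read by 1 probe.

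SLC17A6, the vesicular glutamate transporter VGLUT2 of sensory and subcortical neurons, was at 2.32 to 112 CPM in EBs (median 49.6). No ectoderm library had a read, so the level in EBs was at least 38.3-fold higher, against a floor of 3 reads in each library. SLC17A7, the cortical transporter VGLUT1, differed less, at 29.9 to 160 CPM against 32.1 to 44.6 CPM (log2 fold change 1.02 ± 0.32, SE). SLC18A3, the vesicular acetylcholine transporter, was present in all EB libraries at 3.80 to 25.4 CPM and had no read in ectoderm, at least 8.99-fold higher. GAD1 and GAD2, which make GABA, were not called (log2 fold changes 0.85 ± 0.80 and -1.12 ± 1.05, SE), and neither was TH, the rate-limiting enzyme of catecholamine synthesis (1.48 ± 0.88).

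SYP, a synaptic vesicle protein, was at 117 to 340 CPM in EBs and 0.406 to 0.992 CPM in ectoderm (log2 fold change 8.25 ± 0.34, SE, adjusted p = 8.59e-23). ELAVL3, a neuronal RNA-binding protein, was at 140 to 389 CPM against 0.496 to 1.22 CPM (log2 fold change 8.10 ± 0.38, SE). DCX, a microtubule protein of migrating young neurons, was at 318 to 1351 CPM in EBs and 8.93 to 15.1 CPM in ectoderm (log2 fold change 5.74 ± 0.43, SE). GAP43, a growth cone protein, differed by 2.93 ± 0.22 on the log2 scale (SE). The list also held CNMD, better known from cartilage, at a log2 fold change of 4.05.

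The members that were lower in EBs were DPYSL3, MAP2, SYT6, NTRK2 and DLG4. MAP2, a dendritic microtubule protein, was at 121 to 359 CPM in EBs (median 243) and 779 to 855 CPM in ectoderm (log2 fold change -1.76 ± 0.13, SE, adjusted p = 7.66e-15). DPYSL3, a growth cone protein, was at 372 to 732 CPM in EBs and 3232, 3239.5, 4244 and 3234 CPM in ectoderm (log2 fold change -2.64 ± 0.08, SE, adjusted p = 3.44e-27). All 3 probes of each were called lower. EB libraries therefore had more TUBB3, DCX and SYP and less MAP2 and DPYSL3 than ectoderm, with no overlap between the cultures for any of these 5 genes. DLG4, a postsynaptic scaffold, had a log2 fold change of only -0.35 ± 0.13 (SE, adjusted p = 0.0166) and lost its call without ectoderm replicate 3 (adjusted p = 0.0711).

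**Figure D3:**
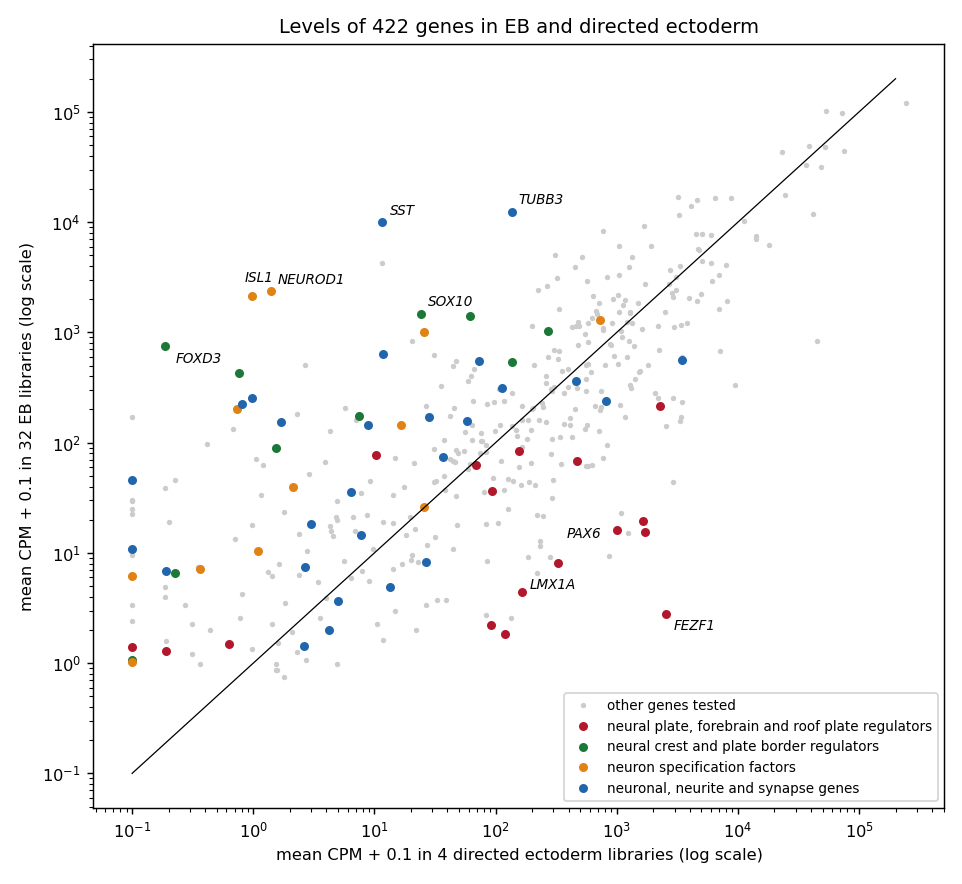
Mean level of each of 422 genes in 4 directed ectoderm libraries (x axis) and 32 EB libraries (y axis), both as CPM + 0.1 on log scales, with 4 neural lists in colour and a line of equal level. SST and TUBB3 have the highest EB levels of the coloured lists, 10056 and 12486 CPM, ISL1, NEUROD1, SOX10 and FOXD3 lie above the line, and FEZF1, PAX6 and LMX1A lie below it.

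Glial genes were higher where they were called. Of 6 tested members 4 were higher and none lower, against 40.5% higher and 35.1% lower over all genes tested. SOX10, also in the crest list, was among them. S100B, a calcium-binding protein of Schwann cells and astrocytes, was at 203 to 1147 CPM in EBs (median 448) and 2.03, 2.14, 1.98 and 4.21 CPM in ectoderm (log2 fold change 7.52 ± 0.47, SE, adjusted p = 3.29e-17). SLC1A2, a glial glutamate transporter, had a log2 fold change of 2.29 ± 0.34 (SE) and PDGFRA, a receptor of oligodendrocyte precursors and mesenchyme, 2.02 ± 0.54 (SE). The most abundant probe of PDGFRA was not called when tested alone (log2 fold change 1.62, adjusted p = 0.102). GFAP and AQP4, astrocyte genes, did not pass the filter, with EB means of 0.0882 and 0.262 CPM.

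Signalling genes on the panel were few. Of 8 TGF-beta and BMP pathway genes, 2 were higher (GDF3 and TDGF1) and 2 lower (GDF15 and ID1) in EBs. TDGF1, a Nodal co-receptor, was at 0 to 628 CPM in EBs (median 68.2) and 0, 1.43, 2.48 and 12.99 CPM in ectoderm, a log2 fold change of 4.85, or 6.61 without ectoderm replicate 4. ID1, a direct BMP target, was at 2.30 to 54.1 CPM in EBs (median 15.8) and 41.0 to 61.5 CPM in ectoderm, where the BMP receptor inhibitor was present (log2 fold change -1.44 ± 0.39, SE, adjusted p = 0.00125). Of its 2 probes tested alone, 1 was called lower (log2 fold change -2.48, adjusted p = 0.00125) and the other was not called (-0.76, adjusted p = 0.13). Of 8 tested WNT and FGF pathway genes, 2 were higher and 4 lower. FZD5, a WNT receptor of the anterior neural plate and eye field, was at 15.8 to 153 CPM in EBs and 2678, 2989, 2978 and 2958 CPM in ectoderm (log2 fold change -6.10 ± 0.21, SE, adjusted p = 1.75e-25). Endoderm cultures had 54620 to 100769 reads of FZD5 per library, against 6006 to 8423 in ectoderm, so it does not mark ectoderm alone. The secreted WNT antagonists FRZB and SFRP1 were lower in EBs as well, at -3.11 and -1.26 on the log2 scale. Endoderm cultures had the most SFRP1, at 26452 to 48951 reads per library. WNT1, a ligand of the dorsal midbrain and roof plate, was at 0 to 63.5 CPM in EBs (median 14.6) and had a single read in ectoderm, in replicate 1. This is a ratio of 205.7 with an exact 95% interval of 36.9 to 8130 (counting error only). The fitted log2 fold change of WNT1 was 7.17. It was 9.19 without that library, when no ectoderm read is left and the value is not a measured size.

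Markers of other cell types varied beside these neural differences, and their part in them was not tested. Of 15 tested pluripotency markers, 7 were higher and 3 lower in EBs than in ectoderm. Over all genes tested 40.5% were higher and 35.1% lower, so the higher share was near that of the panel. Their summed level was 7883.8 to 10335.9 CPM in EBs, 17039.2 to 19007.1 CPM in ectoderm and 23454.4 to 27031.6 CPM in hESC. Most of the ectoderm sum came from LIN28A and from SOX2, which is also a neural progenitor gene, so the sums do not rank the cultures by pluripotency. NANOG, a core pluripotency factor, was at 0 to 164 CPM in EBs (median 33.3), had a single read in ectoderm, in replicate 3, and averaged 2141 CPM in hESC. Its fitted log2 fold change was 8.41. It was 10.45 without that library, when no ectoderm read is left and the value is not a measured size. POU5F1 did not pass the filter, with means of 0.728 CPM in EBs, 0 in ectoderm and only 9.20 CPM in hESC, so its probes say little about pluripotent cells here. LIN28A, SALL4 and SOX2 were the members that were lower, at -1.06, -2.06 and -3.40 on the log2 scale. ZFP42 was higher, at 122 to 370 CPM against 83.6 to 90.2 CPM.

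Of 13 tested mesoderm markers, 4 were higher (ISL1, HAND1, PDGFRA and CDH5), KDR was lower and 8 were not called. Their summed level was 1278.6 to 6859.8 CPM in EBs and 162.2 to 211.8 CPM in ectoderm, but ISL1 made up most of it. Without ISL1 and without Y27 EB replicate 15, the sum averaged 146 ± 114 CPM (SD, n = 31) in EBs and 180.4 CPM in ectoderm. TBXT, the defining marker of early mesoderm, was at 0 to 33.6 CPM in EBs (median 2.56) and 5.68 to 11.6 CPM in ectoderm. Y27 EB replicate 15 stood apart, with 4099 CPM of HAND1, 90.6 of FOXF1 and 191 of TNNT2. HAND1, a factor of lateral mesoderm and heart, had a median of 16.3 CPM in EBs and no read in ectoderm. The EB mean was at least 141-fold higher over all 32 libraries and at least 36.4-fold higher without that library. The same library had 1248 CPM of SOX10, 1952 of ISL1 and 2479 of NEUROD1, each inside the range of the other EB libraries, and all 319 called genes were called again without it.

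Most endoderm markers did not differ beyond the test's threshold. Of 8 tested, SOX7 was higher and FOXA1 lower, and SOX17, a defining marker, was at 0 to 21.7 CPM in EBs and 0 to 3.86 CPM in ectoderm, against 3249 CPM in endoderm cultures. Ectoderm replicate 4 had more of several genes that were high in endoderm cultures. LEFTY2 was at 2.44, 1.78, 36.2 and 293 CPM in ectoderm replicates 1 to 4, GATA6 at 2.03, 2.49, 1.98 and 10.5 CPM, and CYP26A1 at 14.2, 14.6, 12.9 and 42.1 CPM. Its LMX1A level of 196 CPM was also the highest of the 4. Leaving it out gave 304 called genes in place of 319 and moved CYP26A1, a retinoic acid degrading enzyme, from 1.61 to 2.20 on the log2 scale. Among epithelial markers, TP63 had no read in any EB or ectoderm library and KRT18 was lower in EBs (log2 fold change -2.05 ± 0.43, SE).

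**Figure D4:**
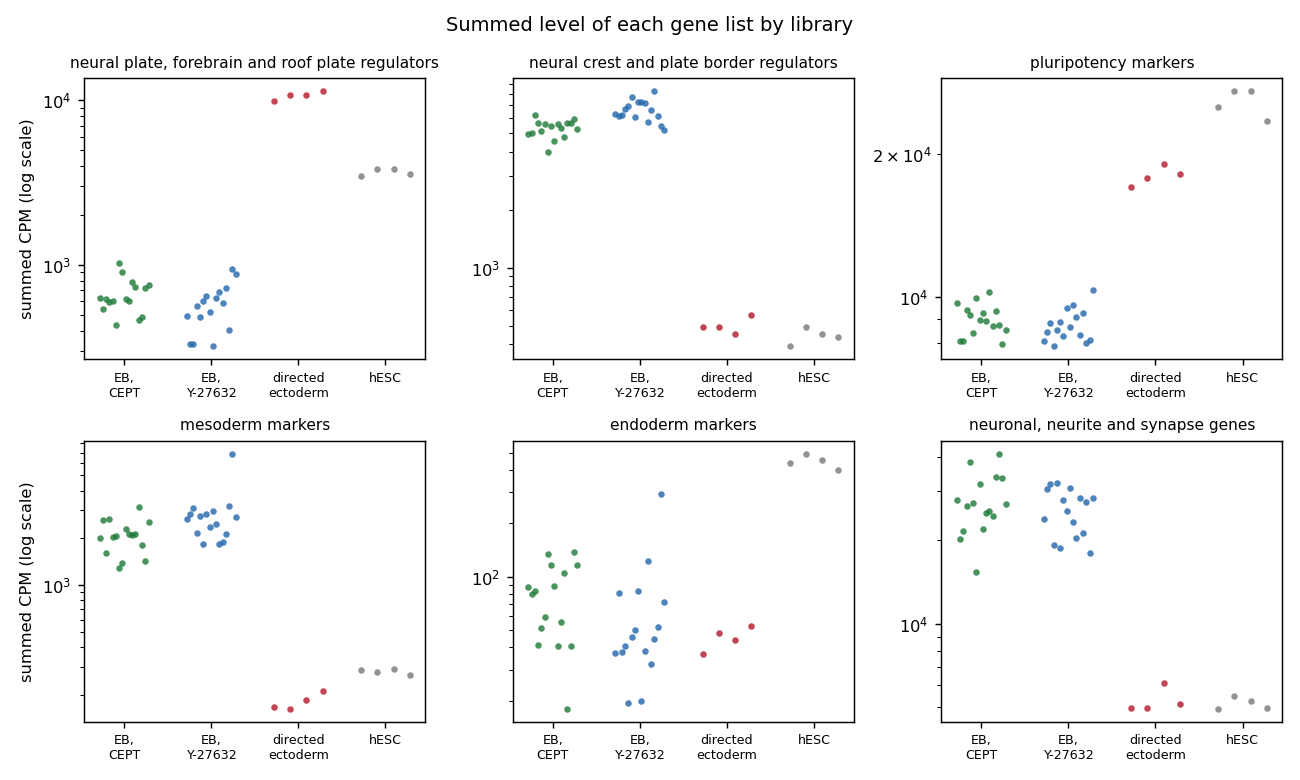
Summed CPM of 6 gene lists, on log scales that differ between panels, with a point for each library of CEPT EB, Y-27632 EB, directed ectoderm and hESC. Forebrain sums are at most 1021.1 CPM in EBs and at least 9871.7 CPM in ectoderm, crest sums are at least 3987.1 CPM in EBs and at most 565.0 CPM in ectoderm, and the highest mesoderm sum, 6859.8 CPM, is Y-27632 EB replicate 15.

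Genes outside the neural lists were also among the largest differences by fitted value, and those without a read in ectoderm have only a lower bound. Among the 12 highest log2 fold changes were MEF2C, a MADS-box factor of muscle, crest and neurons, at 14.49 to 53.4 CPM in EBs without a read in ectoderm (at least 24.5-fold higher), and RANBP3L (at least 24.9-fold). S100A10, a partner of annexin A2, was at 2083 to 11816 CPM in EBs and 6.77 to 22.1 CPM in ectoderm, and at 2135 CPM in hESC. IDO1 and GDF3 had no read in ectoderm. IDO1 was at least 20.5-fold higher in EBs, and GDF3 at least 18.6-fold, with EB means below those of hESC (24.7 against 143 CPM and 22.5 against 317 CPM). Among the 12 lowest were GPC3, a heparan sulphate proteoglycan, at 289.7 to 1512 CPM in EBs and 42882 to 47520.3 CPM in ectoderm (log2 fold change -5.75 ± 0.16, SE), and CAPN6, PRSS23, EFEMP1 and NOS2, between -6.71 and -5.60.

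Both EB arms showed the pattern against the same 4 ectoderm libraries. The CEPT arm had 313 called genes (74.2%), 172 higher (40.8%) and 141 lower (33.4%). The Y-27632 arm had 312 (73.9%), 168 higher (39.8%) and 144 lower (34.1%). Of all genes tested, 288 genes were called in the same direction in both, none in opposite directions, and 49 in a single arm. These comparisons share their control libraries, so the arms' values stand side by side. SOX10 had log2 fold changes of 5.74 in the CEPT arm and 6.15 in the Y-27632 arm, ISL1 11.02 and 11.31, PAX6 -5.60 and -6.42, and LMX1A -4.77 and -5.96. The difference between the arms, tested in the same fit, was called for 120 genes (28.4%), 60 in each direction.

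Over all genes tested, 14.2% were called in each direction between the arms. Of the 10 crest genes 6 were lower in the CEPT arm, among them SOX10, FOXD3, SNAI2, PAX3 and NGFR, and none was higher. Of the 17 forebrain genes 3, a share near that over all genes, were higher in the CEPT arm (OTX2, SIX3 and ZIC4) and none was lower. SOX10 averaged 1275 ± 269 CPM with CEPT and 1689 ± 351 with Y-27632 (SD, n = 16 each), a log2 difference of -0.41 ± 0.10 (SE, adjusted p = 0.00327). OTX2 averaged 93.3 ± 35.7 and 43.6 ± 24.5 CPM, a log2 difference of 1.08 ± 0.23 (SE, adjusted p = 0.000497). PAX6 and LMX1A, at 20.5 against 11.3 CPM and 6.00 against 2.54 CPM, did not pass the test of the arms (adjusted p = 0.115 and 0.0934), nor did ISL1 (adjusted p = 0.0767). The balance of this test depends on scaling: with library totals alone 172 genes were called, 29 higher and 143 lower in the CEPT arm, and with reference genes 206, of which 22 were higher and 184 lower. With upper-quartile factors 64% of 100 calls were higher.

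**Figure D5:**
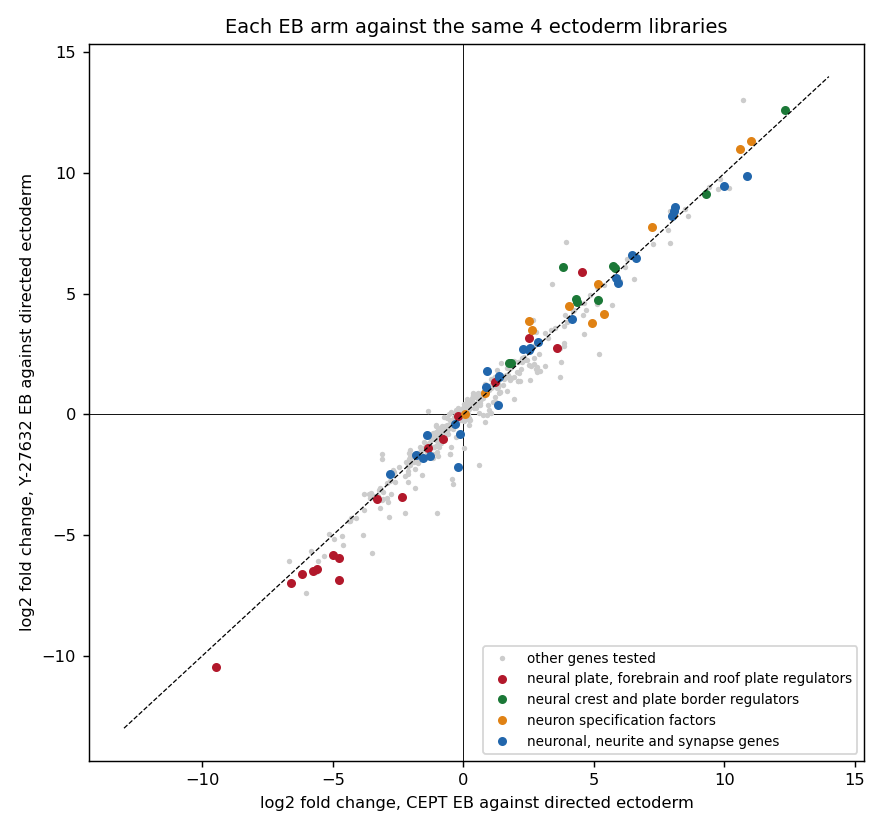
Log2 fold change against the same 4 directed ectoderm libraries for CEPT EB (x axis) and Y-27632 EB (y axis), with a point for each of 422 genes, 4 neural lists in colour and a dashed line of equal change. Forebrain genes lie at the lower left, down to -9.49 and -10.48 for FEZF1, and crest genes at the upper right, up to 12.32 and 12.61 for FOXD3.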

How the data were processed

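RASL-Seq reads were counted by the authors with a custom aligner against their probes, per the labels, and the deposited values are raw counts per probe pair without normalization; no molecular identifiers are mentioned. The submitters' processing notes name hg38 and DESeq2 without a role. Versions of the authors' tools and probe sequences are not given in the sources used here. Groups came from the labels. The merged table repeats the 48 sample tables, and 16 further columns matched no sample and were not used. Of 452 symbols, 443 were current and 9 were matched through RefSeq transcripts.

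Counts were summed per gene. The 36 libraries entered a single edgeR 4.0.16 fit in R 4.3.3 (filterByExpr by group, TMM, robust quasi-likelihood, two-sided, Benjamini-Hochberg, threshold 0.05) with 3 groups, and the contrast was the mean of both EB arms minus ectoderm. A standard error is the absolute log2 fold change over the square root of F. CPM used effective sizes, and hESC, mesoderm and endoderm libraries were put on the same scale. Where a whole group had no read, folds are bounds against 3 reads per library. Figures, ranks and fits without a library used the fitted values. Genes were named as follows: the 4 markers; among called genes whose higher group averaged 50 reads or more, the top 12 in each direction over the panel and up to 4 in each direction per list; and other list members with their values. Some genes of the lists are counted but not reported here. Members and lists were chosen with earlier results of these data known. Outlying libraries, scalings, filters, DESeq2 1.42.0, single probes, a replicate block, other sample sets and left-out libraries served as alternatives. Totals ranged from 379810 to 5577868 reads, and the precision of low counts is limited accordingly. No pair of libraries agreed within counting noise (chi-square over degrees of freedom was 15 or more).

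The fit was tested on simulated counts for this comparison with 200 of 422 genes changed, 100 by 2-fold and 100 by 4-fold. Among changed genes that passed the count filter in the simulated counts, calls were made for 70.7% of 2-fold and 87.8% of 4-fold changes. Of all calls, 3.11% were false. A simulation without changes gave 0 calls. In the data 319 of 422 genes were called, with 66 higher and 43 lower by at least 3 on the log2 scale. The rate of false calls with changes as many and as large as these was not tested. Python 3.11.15 with matplotlib 3.10.9 made the figures.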

Additional observations from a re-analysis of the deposited data

Results flagged for a closer look

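In the ectoderm group, 11 of 65 named genes had a library far from the other 3; chance alone flags about 1 in 20 groups. In replicate 4 these were CYP26A1 (42.1 CPM), S100A10 (22.1), S100B (4.21) and FOXD3 (0.351, a single read). In replicate 3 they were DPYSL3 (4244 CPM), KRT18 (703), HES5 (169) and NANOG (0.496, a single read). Replicate 1 had FZD5 at 2678 CPM and WNT1 at 0.406 (a single read), and replicate 2 had ZFP42 at 90.2 CPM. A gene with a single read in the group is flagged by construction, so the rate of 1 in 20 does not apply to FOXD3, NANOG and WNT1. Nor does it apply to HAND1, GDF3, IDO1, MEF2C, RANBP3L and SLC17A6. They had no read in any ectoderm library, so they could not be flagged but are counted among the 65.

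Between the EB arms 28.4% of all genes tested were called, and the share among the 65 named genes was no higher. The effect against ectoderm differed between the EB arms for 16 named genes, by a test of the difference in the same fit (CEPT EB minus Y-27632 EB, log2 scale). It was larger with CEPT for GDF15 (3.07), ZIC4 (2.13), PRSS23 (1.34), SLC17A6 (0.99), FZD5 (0.89), RANBP3L (0.81), S100B (0.80), SLC1A2 (0.57) and SST (0.54), in the sense of a higher level in that arm. It was lower with CEPT for SOX10 (-0.41), NEUROD1 (-0.38), SYP (-0.34), DPYSL3 (-0.33), DLL1 (-0.30), FOXD3 (-0.29) and SOX2 (-0.25). GDF15 reached 967 CPM in CEPT EB replicate 7, against a mean of 141 in that arm.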

How the results depend on the processing

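The count of genes called in EBs against ectoderm was 319. It lay between 291 and 325 under the other scalings, no filter, DESeq2, a single EB group and all 48 libraries, and between 304 and 309 without each ectoderm replicate in turn (CEPT arm 297 to 301, Y-27632 arm 297 to 299, difference of the arms 119 to 120). Without Y27 EB replicate 15 or CEPT EB replicate 13 it was 322 in each case. A stricter filter, 10 reads or more in each library, tested 265 genes and called 219; by construction it removes genes that are near 0 in either culture, and it left 1 lower forebrain gene in place of 12, 5 higher crest genes in place of 8, 3 higher neuron specification factors in place of 10 and 10 higher neuronal genes in place of 17. Tested singly, 703 of 990 probes were called (CEPT arm 690, Y-27632 arm 677, difference of the arms 215). The difference of the arms gave 206 genes with reference gene scaling, and its median log2 value over all genes went from 0 to -0.47. The summed reference genes had a median of 180855.7 CPM in the CEPT arm and 139861.8 CPM in the Y-27632 arm. Their part in the count was not tested. No named gene changed direction, with the most abundant probe standing for a gene where probes were tested singly; SPRY2 also had a probe called lower (-1.44). Calls were lost under at least 1 alternative for SPRY2, ZBTB16, DLG4, CDH5, CYP26A1, ID1, PDGFRA and SYT6. Over all genes, the median log2 fold change went from 0.27 to 0.05 with median-ratio factors and 0.45 with library totals.

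Replicate numbers in the labels did not clearly pair the samples. Deviations of CEPT EB and Y-27632 EB libraries with the same number correlated from -0.32 to 0.34, and 3 of 16 pairs were over 0.1. With ectoderm, the 4 CEPT EB pairs ranged from -0.28 to 0.12, with 1 over 0.1. The 4 Y-27632 EB pairs ranged from -0.08 to 0.23, with 2 over 0.1 and 2 matching best with their own number. A replicate block gave 306 genes (CEPT arm 300, Y-27632 arm 299, difference of the arms 113).

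Ectoderm values rest on 4 libraries, levels under about 1 CPM on a few reads, and reads are PCR products, so counting intervals understate the error.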

Other observations

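Several genes outside the lists, chosen after their values were seen, belong to neurons or their environment. CPLX2, a complexin of the presynapse, was at 43.5 to 300.1 CPM in EBs and 0.351 to 1.07 CPM in ectoderm (log2 fold change 7.73 ± 0.56, SE). SLC6A3, the dopamine transporter, was at 15.99 to 98.9 CPM in EBs with a single read in ectoderm. OLFM3, a secreted olfactomedin, was at 220.8 to 1067 CPM against 25.3 to 40.7 CPM. GAL, the neuropeptide galanin, was at 10.8 to 872 CPM against 4.96 to 9.83 CPM, but hESC averaged 680.0 CPM. ACHE, acetylcholinesterase, and CDH20, a cadherin of migrating crest, had log2 fold changes of 4.28 and 4.92. NELL2, a neural secreted glycoprotein, and EPHA4, an ephrin receptor of the neural tube, were lower in EBs without overlap, at -4.40 and -3.19.

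Other genes chosen after their values were seen included metabolic and stress genes. LDHA, lactate dehydrogenase, was at 1172 to 4642 CPM in EBs and 461 to 848 CPM in ectoderm (log2 fold change 2.35 ± 0.30, SE), with 5246 CPM in hESC. FAM162A, a hypoxia-induced mitochondrial protein, was at 553 to 6703 CPM against 221 to 339 CPM. DDIT3, a stress-induced transcription factor, was at 147 to 1109 CPM against 33.7 to 54.8 CPM. Stress genes differed in direction. All tested probes of ATF4 were called higher (log2 fold change 0.35 to 0.46). Those of GADD45A (-2.005 to -1.428), CDKN1A (-1.70 to -1.35) and DDB2 (-3.20 to -3.09) were all called lower. GAPDH, another glycolytic enzyme, was not called (log2 fold change -0.13), and 1 of its 2 probes tested alone was lower (-0.43, adjusted p = 0.0184). The part of these in the neural differences was not tested.

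Of 349 genes with several tested probes, 198 had every probe called in the same direction and 5 had probes called in opposite directions (DPPA4, FZD7, GSTP1, PRRC2C and SPRY2).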
